A study of Mus musculus with 10 samples.

Results

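The genes described here are 10 feedback and target genes of the FGF-ERK pathway: the sprouty genes Spry1, Spry2 and Spry4, the related Spred1 and Spred2, the MAP kinase phosphatase genes Dusp4 and Dusp6, and the transcription factor genes Etv1, Etv4 and Etv5. They were taken by name from the deposited array table, and all 10 were found among its 19938 named genes. The arrays covered 5 kinds of mouse cell culture with 2 biological replicates each, 1 array per replicate. ESC were embryonic stem (ES) cells of the line R1, derived from the 129/Sv strain, grown over inactivated mouse fibroblasts with 15% serum and 1000 U/ml of Lif, a cytokine that keeps mouse ES cells undifferentiated. The label p-NSC_L (pNSC_L below) stands for primitive neural stem cells, spheres that R1 cells formed in serum-free N2 medium with 1000 U/ml Lif and no FGF named. Primitive cells re-plated in 1000 U/ml Lif with 10 ng/ml FGF and 2 μg/ml heparin were labelled p-NSC_LF (pNSC_LF). Definitive neural stem cells, d-NSC (dNSC), came from primitive ones passaged into N2 and B27 medium with 20 ng/ml FGF, 20 ng/ml EGF and 2 μg/ml heparin, with no Lif named. CNS-NSC (CNS_NSC) were wild-type neural stem cells of ICR embryos at E11.5, taken from the frontal lobes of the brain and grown with N2, again at 20 ng/ml FGF, 20 ng/ml EGF and 2 μg/ml heparin. By the labels all but CNS_NSC derive from 1 ES line, a point on which the Hprt values given further on bear, and the labels do not say how many embryos the CNS_NSC came from. FGF stood at 0 (none named), 0, 10, 20 and 20 ng/ml in the order given, but it never changed alone.

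FGF binds receptor tyrosine kinases at the cell surface, and the signal passes through Ras, Raf and MEK to the kinase ERK. ERK signalling switches on genes whose products then restrain it: sprouty and Spred proteins act on the pathway upstream of ERK, Dusp6 removes phosphate from ERK in the cytoplasm and Dusp4 in the nucleus. Etv1, Etv4 and Etv5 form the PEA3 family of ETS transcription factors, widely read as targets of FGF signalling. In mouse ES cells FGF4 made by the cells themselves acts through ERK to prepare them for differentiation, and in neural stem cell culture FGF and EGF, both of which signal through ERK, serve as mitogens. mRNA levels of such genes are often used as a readout of the pathway; phosphorylated ERK was not measured here.

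Spry1 and Dusp6 turned out to have like profiles over the arrays, so the stretch around their start sites is shown, 250 bases before to 50 after, from RefSeq in build GRCm38.p6. Spry1 lies on the plus strand at chr3:37639697-37639996 and Dusp6 on the plus strand at chr10:99262981-99263280. Capitals mark the ETS core GGAAG or its reverse complement.
Spry1: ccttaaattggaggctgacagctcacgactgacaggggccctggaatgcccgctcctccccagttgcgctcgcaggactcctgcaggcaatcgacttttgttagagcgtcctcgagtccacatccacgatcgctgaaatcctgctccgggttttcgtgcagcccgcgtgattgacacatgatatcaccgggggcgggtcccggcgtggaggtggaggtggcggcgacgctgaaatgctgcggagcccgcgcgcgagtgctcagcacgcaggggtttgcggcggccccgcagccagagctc
Dusp6: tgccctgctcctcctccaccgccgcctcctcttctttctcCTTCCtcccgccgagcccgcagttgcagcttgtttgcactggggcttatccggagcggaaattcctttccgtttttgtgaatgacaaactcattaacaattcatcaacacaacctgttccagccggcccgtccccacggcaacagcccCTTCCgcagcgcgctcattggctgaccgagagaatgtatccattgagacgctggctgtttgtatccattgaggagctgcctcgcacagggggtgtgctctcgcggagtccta
The table matched 7 of the 10 members with 9 windows, 2 each for Etv1 and Etv5; Spry4, Dusp4 and Etv4 were not matched. Both strands were searched, also for TGAATGAA and TGAATGGA, octamers bound by Capicua, a repressor that ERK relieves. TGAATGAA and TGAATGGA were in 0 of the 9 windows, against 2.47% of all 32851 windows of this length for either. Other octamer forms bound by Capicua were not searched for, so their number in these windows is not given. The longer ETS site CCGGAAGT, which contains GGAAG, was in 0 of 9 (3.89% of all windows). The AP-1 site TGANTCA (7.81%) and the CArG box of serum response factor (1.63%) were likewise in 0 of 9. The short core GGAAG was in 6 of 9 windows, near its share of 71.4% of all windows, with 0 places in the Spry1 window and 2 in that of Dusp6. CCGGAA, which overlaps GGAAG, was in the Spry2 window (14.9% of all windows), at 34 to 39 bases after the start site. These are matches of letters in short windows and say nothing of binding or of enhancers.

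The values are log2 intensities of 1 probe set per gene, so a step of 1 is a doubling, and levels are compared only within a gene. A difference is the first group's mean minus the second's, given ± SE by limma for n = 2 arrays a group. Rose and fell are written only for a Benjamini-Hochberg adjusted p from limma under 0.05, taken over all 19938 genes. Having only 2 arrays a group limits the precision throughout. All 10 members had a mean above that of the median gene, 8.10, the lowest being Dusp4 at 8.78. Shares of all genes below are thus not matched to the members' level. With the dimmer 50% of genes left out, the share of genes called was larger in every comparison. Array medians lay between 7.66 and 7.76. The replicates of pNSC_L and CNS_NSC differed by at least 2-fold at 167 and 277 genes, those of the other groups at 1 to 30. Both ESC arrays read low for Hprt, a purine salvage gene, at 6.99 and 6.76, while the other 8 arrays read 10.45 to 11.60. Whether the ESC arrays hold the same line as the cultures grown from it was not tested, so in pNSC_L against ESC a difference of line and one of culture cannot be told apart. Pluripotency markers (12 measured) averaged 11.89 or more on each ESC, pNSC_L and pNSC_LF array, 9.76 to 9.85 in dNSC and 7.64 to 7.66 in CNS_NSC. Neural stem cell markers (11 measured) averaged 8.76 to 8.90 on the ESC, pNSC_L and pNSC_LF arrays, 10.89 to 10.90 in dNSC and 11.44 to 11.61 in CNS_NSC. By these lists the primitive cultures thus read like ES cells rather than neural stem cells, and their names below are only the labels. Since cultures can mix cell types, fewer cells of a type and less RNA per cell cannot be told apart in these values.

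**Figure D1:**
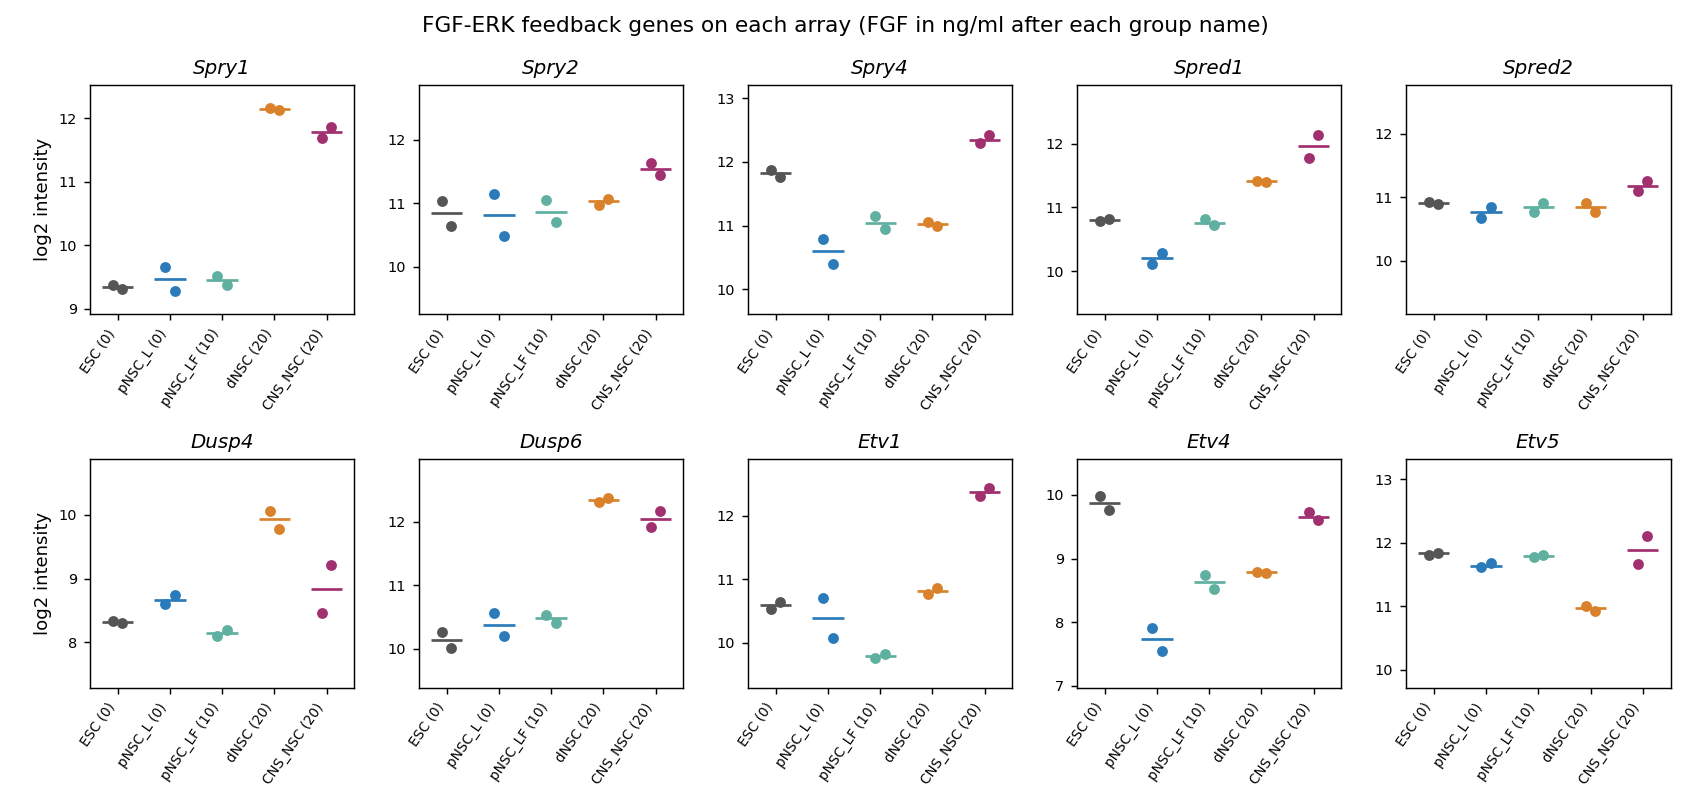
Log2 intensity of each member (y axis, the same height of 3.6 units in every panel) on the 10 arrays, by culture group with its FGF in ng/ml (x axis). Points are arrays and bars are group means; Spry1 and Dusp6 stand high in both groups at 20 ng/ml, while Etv4 is lowest in pNSC_L at 7.91 and 7.55.

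Among the sprouty genes, which encode inhibitors of receptor tyrosine kinase signalling, Spry1 had the widest span. Spry1 read 9.37 and 9.31 in ESC, 9.66 and 9.28 in pNSC_L, 9.51 and 9.38 in pNSC_LF, 12.16 and 12.12 in dNSC, and 11.69 and 11.86 in CNS_NSC. All 4 arrays at 20 ng/ml FGF stood above the other 6, while the 6 arrays with Lif ran only from 9.28 to 9.66. Spry4 read 11.88 and 11.76 in ESC, 10.79 and 10.40 in pNSC_L, 11.15 and 10.94 in pNSC_LF, 11.06 and 10.99 in dNSC, and 12.29 and 12.42 in CNS_NSC. It was thus high in ESC and CNS_NSC and lower in the 3 cultures grown from ES cells without serum, where pNSC_LF and dNSC overlapped. Spry2 read 11.03 and 10.65 in ESC, 11.15 and 10.48 in pNSC_L, 11.05 and 10.70 in pNSC_LF, 10.98 and 11.07 in dNSC, and 11.64 and 11.45 in CNS_NSC. Its 4 groups of ES origin overlapped each time with the next in order, and its group means spanned 0.73 against 2.80 for Spry1.

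Spred1 and Spred2 encode sprouty-related proteins that block Ras and Raf at the membrane. Spred1 read 10.79 and 10.81 in ESC, 10.11 and 10.28 in pNSC_L, 10.81 and 10.72 in pNSC_LF, 11.42 and 11.40 in dNSC, and 11.78 and 12.14 in CNS_NSC. It was lowest in pNSC_L and highest in CNS_NSC, and of the neighbours in its order only pNSC_LF and ESC overlapped. Spred2 moved least of the members on the probe set used, from 10.68 on a pNSC_L array to 11.25 on a CNS_NSC array, and its 4 groups of ES origin overlapped as neighbours.

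The phosphatase gene Dusp6 followed Spry1. It read 10.27 and 10.01 in ESC, 10.56 and 10.20 in pNSC_L, 10.54 and 10.41 in pNSC_LF, 12.31 and 12.37 in dNSC, and 11.92 and 12.16 in CNS_NSC. The 3 Lif groups overlapped as neighbours and both groups at 20 ng/ml stood apart above them. Dusp4 read 8.33 and 8.31 in ESC, 8.60 and 8.75 in pNSC_L, 8.10 and 8.19 in pNSC_LF, 10.07 and 9.78 in dNSC, and 8.46 and 9.21 in CNS_NSC. Only dNSC was high; the CNS_NSC arrays differed by 0.75 and overlapped pNSC_L.

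The 3 PEA3 factors had 3 different orders. Etv4 read 9.99 and 9.76 in ESC, 7.91 and 7.55 in pNSC_L, 8.74 and 8.52 in pNSC_LF, 8.79 and 8.78 in dNSC, and 9.73 and 9.60 in CNS_NSC. No neighbours in its order overlapped, from pNSC_L through pNSC_LF, dNSC and CNS_NSC to ESC, although ESC and CNS_NSC were 0.21 apart and pNSC_LF and dNSC 0.15. Etv1 read 10.54 and 10.65 in ESC, 10.71 and 10.08 in pNSC_L, 9.76 and 9.83 in pNSC_LF, 10.77 and 10.86 in dNSC, and 12.31 and 12.43 in CNS_NSC. It was highest in CNS_NSC and lowest in pNSC_LF. Etv5 read 11.81 and 11.84 in ESC, 11.61 and 11.68 in pNSC_L, 11.78 and 11.80 in pNSC_LF, 11.003 and 10.93 in dNSC, and 11.66 and 12.11 in CNS_NSC. Both dNSC arrays lay below the other 8, as for 9.89% of all genes. CNS_NSC, the other group at 20 ng/ml FGF, had the highest mean, 11.88, and overlapped ESC. The groups at 20 ng/ml thus held both the lowest and the highest mean of Etv5.

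Spread over the groups was common to most members: 7 of 10 had group means at least 1 apart (28.4% of all genes), with a median span of 1.77 against 0.59 for all genes. All members were brighter than the median gene, 8.10, and spans of genes at their level were not compared. The profiles with the smallest root mean square difference over the 10 arrays, after each gene's mean was subtracted, were those of Spry2 and Spred2 (0.29), both nearly flat. Spred2 and Etv5 followed (0.32), then Spry4 and Etv4 (0.33) and Spry1 and Dusp6 (0.35). For comparison, the same measure against a flat line was 1.26 for Spry1, 0.93 for Dusp6, 0.78 for Etv4 and 0.64 for Spry4. It was 0.352 for Etv5, 0.335 for Spry2 and 0.157 for Spred2, so Spred2 lay nearer to a flat line than to Spry2 or Etv5. All these values are for the probe sets used.

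**Figure D2:**
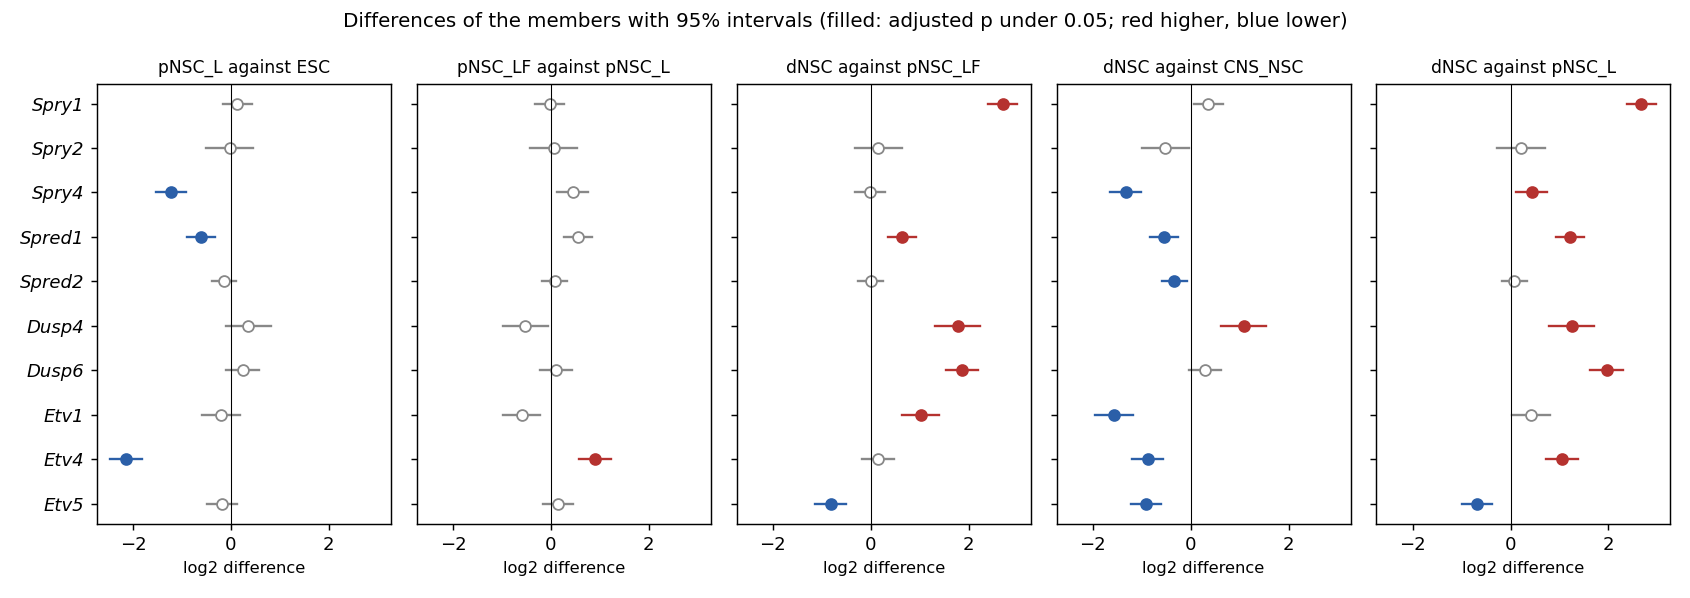
Log2 difference of each member (x axis) with its 95% interval from limma in the 5 comparisons (panels), n = 2 arrays per group; filled points passed the adjusted threshold. The second panel, where FGF at 10 ng/ml and heparin were added, holds 1 filled point, Etv4 at 0.90.

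In pNSC_L against ESC, where by the labels serum and feeders were removed, FGF was named on neither side and the Hprt values differ as given above, 3 of the 10 members fell and 0 rose, and the same count of 3 had an unadjusted p below 0.05 by limma. Etv4 fell 4.42-fold, by 2.14 ± 0.14 (adjusted p = 4.1e-05 by limma), Spry4 by 1.22 ± 0.14 (adjusted p = 5.6e-04) and Spred1 by 0.60 ± 0.13 (adjusted p = 0.013). Of all genes 13.4% were called, 6.79% lower and 6.56% higher, and the members' median difference was -0.16 against 0.02 for all genes. With the dimmer 50% of genes left out, 2640 genes and 3 members were called, a larger share of the genes tested. The 2 groups' arrays stood apart in 6 of 10 members, against 49.3% of all genes. The other 7 had intervals that included 0: Spry1 at 0.13 (-0.17 to 0.43), Spry2 at -0.02 (-0.51 to 0.46), Dusp6 at 0.24 (-0.09 to 0.57) and Etv5 at -0.18 (-0.49 to 0.12) among them. Fibroblast markers moved in the same comparison, with 6 of 12 higher and 1 lower and a mean of 8.01 to 8.28 on the pNSC_L arrays against 7.10 to 7.18 in ESC, and primitive endoderm markers, 5 of 12 higher. Their part in the members' fall was not tested. Spred1 missed the threshold in 4 alternatives, at an adjusted p by limma of 0.076 without ESC replicate 1 (-0.61), 0.079 without ESC replicate 2 (-0.59), 0.058 without pNSC_L replicate 1 (-0.52) and 0.058 by the unmoderated test. Without pNSC_L replicate 1 Etv1 was called lower as well (-0.51, adjusted p = 0.022), and the 2662 genes called over the whole array became 1102 without ESC replicate 1 and 1205 without ESC replicate 2.

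In pNSC_LF against pNSC_L, the step from no named FGF to 10 ng/ml together with heparin and passage, Etv4 rose 1.87-fold, by 0.90 ± 0.14 (adjusted p = 0.016 by limma), and was the 1 member called, against 1.78% of all genes called, 1.1% higher and 0.677% lower. Both pNSC_LF arrays of Etv4 were still below both ESC arrays, and in 6 of 10 members the arrays of pNSC_LF and pNSC_L did not overlap (39.7% of all genes). With unadjusted p below 0.05 there were 5 members: beside Etv4, Spred1 at 0.56 ± 0.13 (adjusted p = 0.063 by limma) and Spry4 at 0.45 ± 0.14 (adjusted p = 0.17), and, in the other direction, Etv1 at -0.60 ± 0.17 (adjusted p = 0.13) and Dusp4 at -0.53 ± 0.21 (adjusted p = 0.28). Etv4, Spry4 and Spred1 were the 3 members with both pNSC_L arrays below the other 8 (3.71% of all genes), which by itself fixes the sign of their difference here. Spry1 differed by -0.02 (95% interval -0.32 to 0.28), Dusp6 by 0.10 (-0.23 to 0.43), Spry2 by 0.06 (-0.42 to 0.54), Spred2 by 0.08 (-0.17 to 0.33) and Etv5 by 0.15 (-0.16 to 0.45). For Spry1 and Dusp6, which stood high at 20 ng/ml, the intervals at this step reached no higher than 0.28 and 0.43. Fibroblast markers fell in this step, 3 of 12 with 0 higher, to a mean of 7.34 on both pNSC_LF arrays. Their part in the differences was not tested.

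This step rested on few arrays. Etv4 missed the threshold in 4 alternatives: without pNSC_LF replicate 1 it differed by 0.79 and without replicate 2 by 1.01, at an adjusted p by limma of 0.18 and 0.068. The unmoderated test gave 0.12, and a fit to these 2 groups alone 0.092. Spred1 was called higher without pNSC_L replicate 2 (0.65, adjusted p = 0.049) or either CNS_NSC replicate (0.56, adjusted p = 0.022), Spry4 higher without pNSC_L replicate 1 (0.64, adjusted p = 0.048) and Etv1 lower without pNSC_L replicate 2 (-0.91, adjusted p = 0.0057). The count of members called was then 0 without pNSC_LF replicate 1 or 2, 2 without pNSC_L replicate 1 or either CNS_NSC replicate, and 3 without pNSC_L replicate 2. Over the whole array 355 genes were called, 48 and 70 without pNSC_LF replicate 1 and 2, 826 without pNSC_L replicate 2, 220 without either ESC replicate, 174 without either dNSC replicate and 577 without either CNS_NSC replicate.

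In dNSC against pNSC_LF, where FGF went from 10 to 20 ng/ml while EGF and B27 were added and Lif was no longer named, 5 members rose and 1 fell, against 38.6% of all genes called, 19.3% in each direction. With the dimmer 50% of genes left out, 5855 genes and 6 members were called, a larger share of the genes tested. The arrays did not overlap in 7 of 10 members, against 72.7% of all genes. Spry1 rose 6.47-fold, by 2.69 ± 0.13 (adjusted p = 2.5e-07 by limma). Dusp6 rose 3.64-fold, by 1.86 ± 0.15 (adjusted p = 5.1e-06), and Dusp4 3.43-fold, by 1.78 ± 0.21 (adjusted p = 7.2e-05). Etv1 rose by 1.02 ± 0.17 and Spred1 by 0.65 ± 0.13. Etv5 fell by 0.82 ± 0.14 (adjusted p = 8.5e-04), so 2 factors of the PEA3 family moved in opposite directions. Etv4 differed by 0.15 (95% interval -0.17 to 0.48), Spry4 by -0.02 (-0.33 to 0.30), Spry2 by 0.15 (-0.33 to 0.63) and Spred2 by 0.00 (-0.25 to 0.25). The 6 calls were also made without each replicate in turn; where that leaves 1 array in a group compared, the lone array is assumed to vary like the other groups, so this is a weak check. Neuronal markers rose in this step, 11 of 12 with 1 lower, neural stem cell markers 9 of 11 with 1 lower. Fibroblast markers rose in 8 of 12 with 1 lower, and primitive endoderm markers in 6 of 12 with 1 lower. Pluripotency markers fell, 11 of 12. The mean of the fibroblast list was 8.33 to 8.40 on the dNSC arrays and that of the neuronal list 9.55 to 9.56 against 7.87 to 7.90 in pNSC_LF. The part of such cells in the members' changes was not tested.

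The 2 ends of the serum-free series of ES origin, dNSC at 20 ng/ml FGF and pNSC_L with none named, share their arrays with the steps above. Here 6 members rose and 1 fell, against 20.5% and 19.4% of all genes (39.9% together), and the arrays did not overlap in 8, against 64.8% of all genes. Spry1 rose by 2.67 ± 0.13, Dusp6 by 1.96 ± 0.15, Dusp4 by 1.25 ± 0.21, Spred1 by 1.21 ± 0.13, Etv4 by 1.05 ± 0.14 and Spry4 by 0.43 ± 0.14, while Etv5 fell by 0.68 ± 0.14. In the same comparison 11 of 12 neuronal markers rose and 1 fell, 9 of 11 neural stem cell markers rose and 1 fell, 6 of 12 fibroblast markers rose and 2 fell, and 11 of 12 pluripotency markers fell. Their part was not tested. Of the genes called over the whole array 51.3% were higher, or 39.1% with each array centred on its median, which moved the median gene by -0.12. The Spry4 call (adjusted p = 0.033 by limma) did not hold with that centring (0.31, adjusted p = 0.098), by the unmoderated test (0.090) or in a fit to the 2 groups alone (0.073). It also failed when pNSC_L replicate 2 (0.24, adjusted p = 0.19), dNSC replicate 1 (0.40, 0.15) or dNSC replicate 2 (0.46, 0.096) was removed. Etv1 differed by 0.42 ± 0.17 (adjusted p = 0.083), or 0.73 without pNSC_L replicate 1 (adjusted p = 0.0010).

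Set side by side, the steps showed at which culture each member moved. The arrays stood in the order pNSC_L below pNSC_LF below dNSC without overlap for 2 members, Spred1 and Etv4 (7.12% of all genes), and in the reverse order for 0 (7.06%). For Spred1 the steps were 0.56 and 0.65, while for Etv4 they were 0.90 and 0.15. Across all 5 groups, 0 members had every array in the order of the FGF amounts 0, 10 and 20 ng/ml (2.18% of all genes). Spred1 missed that order because ESC overlapped pNSC_LF, and Etv4 because ESC stood highest. All 4 arrays at 20 ng/ml lay above the other 6 for Spry1, Spred1, Dusp6 and Etv1, 4 of 10 members against 14.3% of all genes. For Etv1 this held only on the probe set used. Its other probe set read 10.21 and 10.22 in dNSC and 10.24 and 10.14 in ESC, which overlap. Both CNS_NSC arrays stood above the other 8 for Spry2, Spry4, Spred1, Spred2 and Etv1 (16.2% of all genes), and both dNSC arrays for Spry1, Dusp4 and Dusp6 (12.5%).

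The comparison of dNSC with CNS_NSC, at the same 20 ng/ml of FGF and of EGF, set the ES-derived cells beside cells from the embryo. Members were mostly lower in dNSC: 6 were called lower and 1 higher, against 16.5% and 17.6% of all genes (34.0% together). Etv1 differed by -1.56 ± 0.17 (adjusted p = 6.4e-05 by limma), Spry4 by -1.33 ± 0.14 (adjusted p = 4.7e-05), Etv5 by -0.91 ± 0.14, Etv4 by -0.88 ± 0.14, Spred1 by -0.55 ± 0.13 and Spred2 by -0.34 ± 0.11. Dusp4 was 2.13-fold higher in dNSC, by 1.09 ± 0.21 (adjusted p = 0.0022). The median of the members was -0.53 against -0.01 for all genes, and all 3 PEA3 factors were lower. Spry1 differed by 0.36 ± 0.13 (adjusted p = 0.064), Dusp6 by 0.30 ± 0.15 (adjusted p = 0.16) and Spry2 by -0.52 ± 0.22 (adjusted p = 0.095). In all 10 members the 2 groups' arrays did not overlap, which held for 66.2% of all genes. Strain, origin and B27 differ together with the groups and cannot be told apart. Cell type markers moved as well. Of the neural stem cell markers 5 of 11 were lower in dNSC and 2 higher. In dNSC 8 of 12 pluripotency markers, 9 of 12 of primitive endoderm, 7 of 12 of neurons and 7 of 12 of fibroblasts were higher, with 0, 0, 2 and 2 lower. Astrocyte markers were lower in 4 of 7 and higher in 1, and oligodendrocyte lineage markers lower in 3 of 6 and higher in 0, with means of 9.86 to 10.62 in CNS_NSC and 7.81 to 7.88 in dNSC. The part of these cell types in the members' differences was not tested.

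Some calls of this comparison hung on single arrays, for the probe sets used. The second probe set of Spred2, described below, gave a larger difference here, -0.885. Spred2 (adjusted p = 0.043 by limma) was not called without either ESC, pNSC_LF or dNSC replicate or without CNS_NSC replicate 2 (differences from -0.40 to -0.27, adjusted p from 0.061 to 0.24), with an unmoderated test (adjusted p = 0.056) or in a fit to these 2 groups alone (0.067). Without either pNSC_L replicate, Spry1 was called higher (0.36, adjusted p = 0.017) and Spry2 lower (-0.52, adjusted p = 0.031), and both were called in a fit to these 2 groups alone (adjusted p = 0.049 and 0.018). Dusp4 differed by 0.71 without CNS_NSC replicate 1 and 1.46 without replicate 2, each against a single CNS_NSC array assumed to vary like the other groups. Genes called over the array were 51.6% higher, or 41.5% with each array centred on its median.

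**Figure D3:**
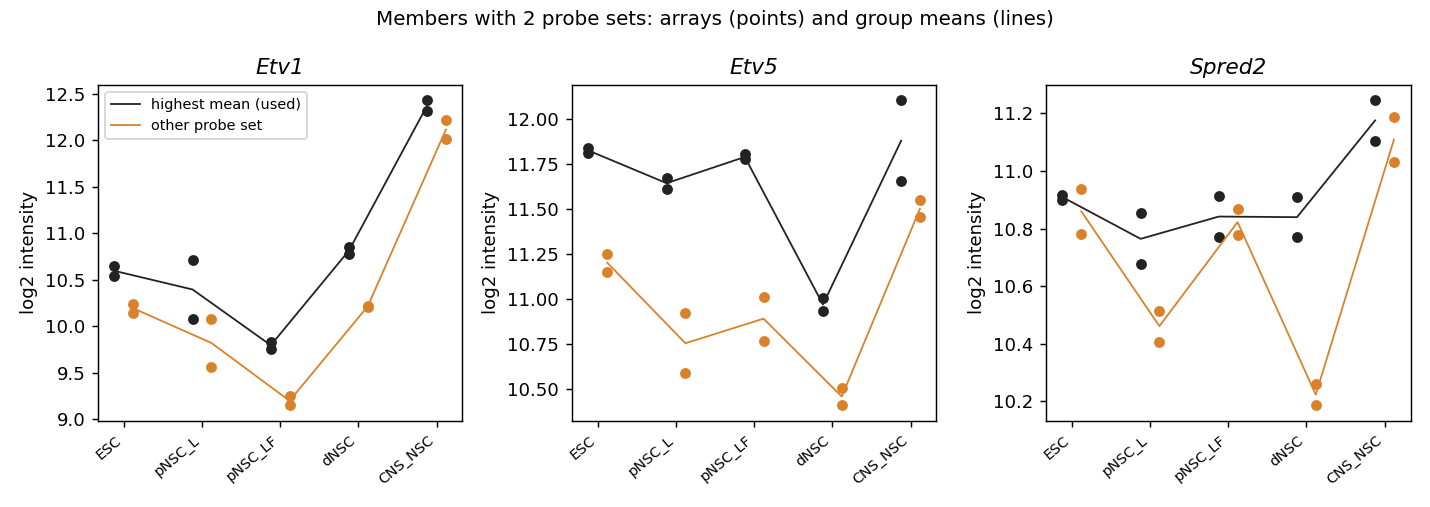
Log2 intensity (y axis) of the 3 members with 2 probe sets in each culture group (x axis): points are arrays and lines join group means, dark for the probe set used and orange for the other. The probe sets of Spred2 part in dNSC, where the used one read 10.91 and 10.77 and the other 10.19 and 10.26.

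Etv1, Etv5 and Spred2 each had a second probe set, which allowed a check within the same arrays. That of Etv1 gave like differences, 1.02 in dNSC against pNSC_LF and -1.90 in dNSC against CNS_NSC. That of Etv5 also fell in dNSC against pNSC_LF, by 0.43 (adjusted p = 0.028 by limma), but its fall against pNSC_L, by 0.30, was not called (adjusted p = 0.11). Spred2 differed most between its probe sets. The second read 10.94 and 10.78 in ESC, 10.52 and 10.41 in pNSC_L, 10.87 and 10.78 in pNSC_LF, 10.19 and 10.26 in dNSC, and 11.03 and 11.19 in CNS_NSC. By it Spred2 fell in dNSC against pNSC_LF by 0.60 ± 0.11 (adjusted p = 0.0015) and in pNSC_L against ESC by 0.40 ± 0.11 (adjusted p = 0.038), where the probe set used gave no call. In dNSC against CNS_NSC the second probe set differed by -0.885 and the one used by -0.336, with the arrays apart on both. Which transcripts each probe set reads was not analysed here.

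**Figure D4:**
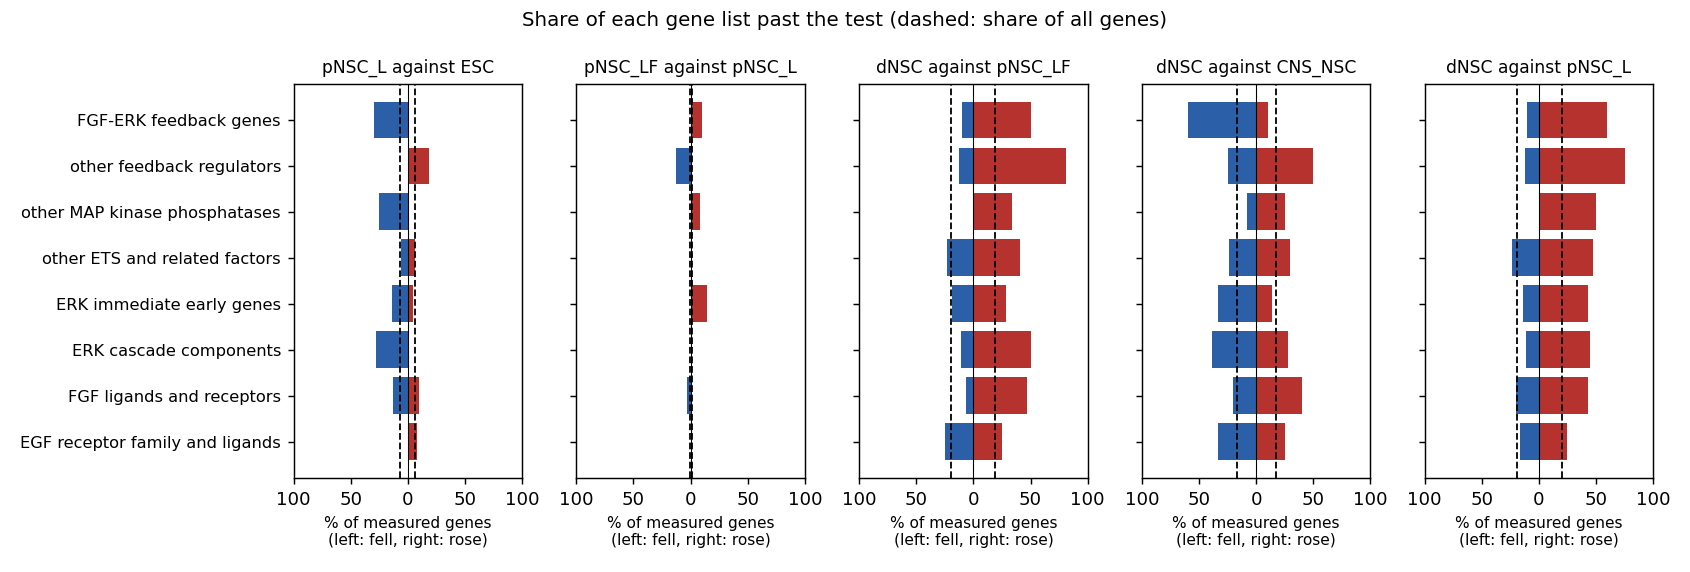
Share of the measured genes of each list (y axis) that rose, to the right, or fell, to the left, in percent (x axis) in the 5 comparisons (panels); dashed lines give the same share over all genes. In dNSC against pNSC_LF 13 of 16 other feedback regulators and 5 of 10 members rose.

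The rest of the pathway gives the setting. The counts of each list below stand beside these shares of all genes. In pNSC_L against ESC 6.56% rose and 6.79% fell, and in pNSC_LF against pNSC_L 1.1% and 0.677%. In dNSC against pNSC_LF it was 19.3% in each direction, and in dNSC against CNS_NSC 17.6% higher and 16.5% lower. Among 16 other feedback regulators, 13 rose and 2 fell in dNSC against pNSC_LF, with a median of 1.07 against -0.01 for all genes. They included the third Spred gene, Spred3, at 2.58 ± 0.13, while the cytokine signalling inhibitor Socs3 fell by 2.10 ± 0.10. The list was not limited to genes that ERK switches on: Nf1, Rasa2, Cbl and Cblb were also among the 13. In dNSC against CNS_NSC 8 rose and 4 fell, with Il17rd, also known as Sef and an inhibitor of FGF signalling, higher by 3.26 ± 0.13 and Lrig1, an inhibitor of EGF receptors, at -2.01 ± 0.10. Il17rd was higher in dNSC while the 3 PEA3 factors were lower, and a link between them was not tested. In pNSC_L against ESC 3 of these 16 rose and 0 fell, and in pNSC_LF against pNSC_L 0 rose and 2 fell, among them Lrig3 at -0.74 ± 0.11.

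Of 12 other MAP kinase phosphatase genes, 3 fell and 0 rose in pNSC_L against ESC, where Dusp9, a phosphatase of ERK, fell by 1.33 ± 0.10. Dusp10, which acts on the stress kinases, was the 1 gene of the list that rose in pNSC_LF against pNSC_L, by 1.08 ± 0.12 (adjusted p = 0.0024 by limma). In dNSC against pNSC_LF 4 of the 12 rose and 0 fell, where 38.6% of all genes were called. Dusp7, another ERK phosphatase, differed by 1.37 ± 0.12. Of 17 other ETS and related factors, 7 rose and 4 fell in that step, Ets1 at 1.01 ± 0.18 and Gabpa at -0.95 ± 0.10. In pNSC_LF against pNSC_L limma called 0 of the 17, against 1.78% of all genes, and 2 had an unadjusted p under 0.05.

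A list of 21 genes held immediate early genes, which ERK activity switches on quickly, and some that follow later, such as the cyclin D1 gene Ccnd1. In pNSC_LF against pNSC_L 3 of them rose and 0 fell, with a median of 0.21 against 0.01 for all genes. The transcription factor gene Jun rose by 1.27 ± 0.13 and the membrane protein gene Emp1 by 1.14 ± 0.23, in a step where 1 of the 10 members was called. In pNSC_L against ESC 1 rose and 3 fell, with Ccnd1 at -1.41 ± 0.14. In dNSC against pNSC_LF 6 rose and 4 fell, Ccnd1 at 1.67 ± 0.14 and Phlda1 at 1.79 ± 0.26, while Emp1 and Plaur, the urokinase receptor gene, fell by 2.05 ± 0.23 and 1.46 ± 0.11. Against CNS_NSC 3 were higher and 7 lower in dNSC, with Myc, a regulator of growth, at -2.07 ± 0.18 and Ccnd1 at -1.67 ± 0.14.

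Of the 26 listed components of the ERK cascade 18 were measured here. In pNSC_L against ESC 5 fell and 0 rose. In pNSC_LF against pNSC_L limma called 0 of 18, against 1.78% of all genes, with 2 at an unadjusted p under 0.05. In dNSC against pNSC_LF 9 rose and 2 fell: the Ras activator gene Sos2 at 2.07 ± 0.12 and the adaptor gene Gab2 at 2.05 ± 0.11, against its relative Gab1 at -1.29 ± 0.16 and Map2k1, which encodes the ERK kinase MEK1, at -1.03 ± 0.15. Among 30 FGF ligands, receptors and binding proteins 14 rose and 2 fell in that step, with Fgfr2 at 2.46 ± 0.24 and the ES cell ligand gene Fgf4 at -3.02 ± 0.11. Of 12 measured genes of the EGF receptor family and its ligands 3 rose and 3 fell there, Erbb4 at 3.94 ± 0.24. Egfr, the receptor of the EGF added to both media, was lower in dNSC than in CNS_NSC, with a difference of -4.44 ± 0.11.

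By the root mean square difference over the 10 arrays, the genes outside the members with profiles most like theirs were as follows. Nearest to Spry1 were Dtx4 (0.13) and Ebf3 (0.14), and to Dusp6 Trp53i11 (0.10) and Eya4 (0.16). Kbtbd7 (0.14) and Bak1 (0.21) lay nearest to Spry4, and Prps2 (0.27) and Bak1 (0.32) to Etv4, so Bak1 was on both lists. Nearest to Spred1 were Gnai1 and Zcrb1, to Dusp4 Calb1 and Rab34, to Etv1 Fmnl2 and Ncam1 and to Etv5 S100a11 and Fbxw7, at 0.07 to 0.24. For Spry2, Smim11 and Mchr1, and for Spred2, Ttbk2 and Garre1, the match rests on small changes. These 10 arrays are 5 pairs of replicates, so a near match is common: the share of genes that lay nearer to a member than a flat line did ran from 6.79% for Spred2 to 48.8% for Spry1.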

How the data were processed

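Total RNA of 10 mouse cultures (5 groups) was isolated using Trizol and measured on Affymetrix arrays after labelling by the Ambion WT kit, per the labels' protocols. The authors deposited log2 values of 35556 probe sets; Partek and RMA appear, with no version, in the submitters' processing notes. RMA evens out array distributions and compresses differences of dim probe sets. Values from 2.07 to 14.74 were taken as base 2, as RMA writes them. The files' genome build and scan batches are not given in the sources used here.

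Of the probe sets, 21789 had 1 gene symbol in the platform annotation, 1621 several and 12146 none here; only the first were used, and 21698 matched RefSeq by gene number. The probe set with the highest mean was kept per gene, giving 19938 genes. A model with a mean for each of the 5 groups was fitted to the 10 arrays (limma 3.58.1, R 4.3.3), with 5 residual and 4.9 prior degrees of freedom and p adjusted per comparison over all genes at 0.05. The labels call the 2 samples of a group biological replicates, and 0 of 45 pairs of arrays were identical. Genes named are the 10 members, up to 2 rising and 2 falling called genes per list with the largest differences, the 2 nearest profiles per member, and Hprt; the text gives a part of them. The members and lists were chosen with earlier results of these data known. Some list entries were not analysed here. The fit was tested on simulated data. Alternatives were 2 normalizations, 2 filters on dim genes, 3 variance models, array weights, the compared groups alone, a replicate block, the mean of probe sets, each replicate left out and, added after seeing the data, the lower-mean probe set of 3 members. The motif forms CCGGAA and GGAAG were added after the longer ETS site gave no match. Tables were made with pandas 2.3.3 and plots with matplotlib 3.10.9, both in Python 3.11.15.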

Additional observations from a re-analysis of the deposited data

How the results depend on the processing

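Over 22 alternatives, 19 of the 24 member differences called kept call and direction under each one run. The exceptions were Spred1 in pNSC_L against ESC, Etv4 in pNSC_LF against pNSC_L, Spred2 in dNSC against CNS_NSC, and Spry4 and Etv5 in dNSC against pNSC_L, the last only with its lower-mean probe set. The cause was not tested. The count of members called in pNSC_LF against pNSC_L, 1, was 2 after quantile normalization, with the dimmer 30% or 50% of genes left out and with a trended prior, and 0 with an unmoderated test or the other groups left out. Leaving out replicates in turn, it ranged from 0 to 3. Where this leaves 1 array in a group, that array is assumed to vary like the other groups. The same ranges were 2 to 3 in pNSC_L against ESC, 6 to 6 in dNSC against pNSC_LF, 6 to 9 in dNSC against CNS_NSC and 6 to 8 in dNSC against pNSC_L. Genes called in pNSC_L against ESC, 2662, were 1587 by the unmoderated test, 1480 with the other groups left out and 1102 to 3290 with a replicate left out. In pNSC_LF against pNSC_L, 355 became 89 with an unmoderated test, 208 with array weights, 99 with the other groups left out and 48 to 826 with a replicate left out. Sign changes touched only differences that were not called: Spred2 gave 0.001 in dNSC against pNSC_LF after quantile normalization, and in dNSC against pNSC_L -0.042 with median centring, -0.081 with the mean of all probe sets and -0.24 with the lower-mean probe set. With a replicate left out, signs turned for Spry1 (-0.061 to 0.32), Spry2 (-0.36 to 0.31) and Etv1 (-0.51 to 0.11) in pNSC_L against ESC. The same held for Spry1 (-0.22 to 0.17), Spry2 (-0.28 to 0.39), Spred2 (-0.011 to 0.17) and Dusp6 (-0.078 to 0.27) in pNSC_LF against pNSC_L. In dNSC against pNSC_LF it held for Spry2 (-0.024 to 0.33), Spry4 (-0.12 to 0.086) and Spred2 (-0.075 to 0.070), and in dNSC against pNSC_L for Spry2 (-0.12 to 0.55) and Spred2 (-0.013 to 0.16). The labels do not say that a replicate number marks a shared batch, and deviations of same-numbered samples correlated at -0.107 to 0.375 between groups, so they were not treated as pairs. With the replicate number as a block, 1 member call changed, Spry2 in dNSC against CNS_NSC (-0.52, adjusted p = 0.031 by limma), and genes called in pNSC_LF against pNSC_L were 407.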
